A study of Mus musculus with 12 samples.

Results

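The genes described are 10 that belong to the Notch pathway or the pre-T cell receptor (pre-TCR): the receptors Notch1 and Notch3, the ligands Dll4, Jag1 and Jag2, the target genes Hes1, Heyl, Dtx1 and Nrarp, and Ptcra. They were chosen by name, and the estimated counts of all transcripts that carried each symbol were summed in every library. They are 10 of the 22843 genes in the mRNA table, and all 10 were among the 14805 genes that were abundant enough to be tested. Whole thymus was taken from male, wild-type C57BL/6 mice at 2 weeks (2W), 6 weeks (6W) and 3 months (3M) of age, with 2 biological replicates at each age and no treatment or transgene in any group. The comparison of 6W with 2W covers the rapid growth of the organ and that of 3M with 6W its early decline.

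Notch receptors sit on the surface of the cell that receives the signal. A ligand on a neighbouring cell exposes the receptor to cleavage by ADAM proteases and γ-secretase, and the released intracellular domain binds the DNA-binding protein RBPJ and turns on target genes. In the thymus, Dll4 on cortical epithelial cells and Notch1 on incoming progenitors are known as the pair that commits these progenitors to the T lineage. Ptcra encodes pre-Tα, which pairs with a rearranged TCRβ chain to form the pre-TCR on CD4-CD8- (double-negative, DN) thymocytes, and its signal carries the cells to the CD4+CD8+ (double-positive, DP) stage.

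The 6 mRNA libraries held 16519753 to 22553481 estimated counts each. Levels are given as CPM, counts per 1000000 after TMM scaling, and each difference is a log2 fold change from edgeR's quasi-likelihood test with its SE and a p-value adjusted over the 14805 genes by the Benjamini-Hochberg method. A gene was called at an adjusted p under 0.05. The study threshold, the rule used by the authors, asked for an unadjusted p under 0.05 and a log2 fold change beyond 1 in either direction. The tissue label was checked against markers. The 7 DP thymocyte markers (Rag1, Rag2, Dntt, Arpp21, Cd4, Cd8a and Cd8b1) summed to 11810 to 16530 CPM. None of the 78 marker genes of 13 cell types was at 0 in all libraries, a weak check that 1 count in 1 library would pass. Since whole organs were sequenced, fewer cells of a type and less RNA per cell cannot be told apart in any result below.

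At 6W, 3 of the 10 genes, Notch1, Dll4 and Dtx1, were down-regulated relative to 2W and none was up-regulated. Of all tested genes, 1.74% were called in this comparison, 0.263% as lower and 1.47% as higher. At 3M none of the 10 was called relative to 6W, where 0.00675% of all genes, a single gene, were called by edgeR. At an unadjusted p under 0.05, 6 of the 10 (Dll4, Jag1, Jag2, Hes1, Heyl and Dtx1) were higher at 3M than at 6W, beside 7.81% of all genes, and DESeq2 called Jag1 and Dtx1 among 341 genes (2.30% of all). Relative to 2W, 7 of the 10 were called at 3M: Notch1, Notch3, Dll4 and Ptcra were lower, and Jag1, Jag2 and Heyl were higher. The background of that comparison was 11.0%, with 3.10% lower and 7.91% higher. The study threshold held Dll4 and Dtx1 at 6W against 2W, beside 5.36% of all genes, and Jag1 and Jag2 at 3M against 2W, beside 9.35%. The 2 libraries of one age lay wholly above or below those of the other in 8 of the 10 genes at 6W against 2W, 7 at 3M against 6W and 9 at 3M against 2W, beside 57.8%, 49.2% and 51.8% of all genes. The median log2 fold change of the 10 genes was -0.54 from 2W to 6W and 0.52 from 6W to 3M, beside -0.01 and 0.02 over all tested genes.

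**Figure D1:**
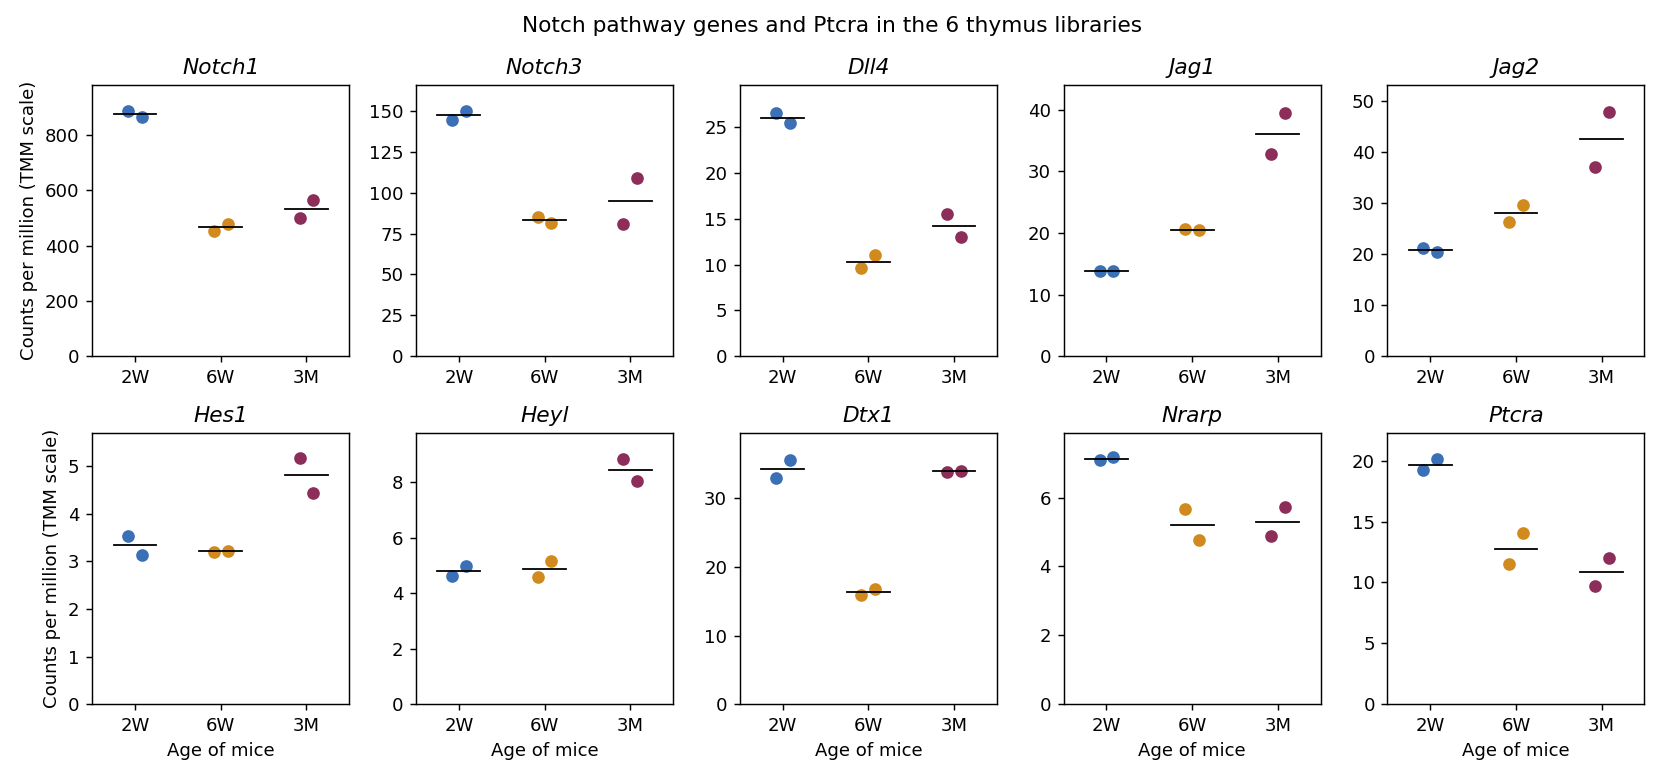
Level of each gene (y axis, CPM on the TMM scale, from 0) in the 2 libraries (points) of each age (x axis), with the mean of the age as a line. Notch1, Dll4 and Dtx1 are lowest at 6W, Notch3 and Ptcra are below their 2W level at 6W and 3M, Jag1 and Jag2 are highest at 3M, Heyl and Hes1 stand apart at 3M alone, and Dtx1 is back at its 2W level at 3M.

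Notch1, the receptor required for T lineage commitment, was by far the most abundant of the 10. It stood at 886 and 865 CPM at 2W, 453 and 480 CPM at 6W, and 501 and 565 CPM at 3M. No 2 ages overlapped, with the highest at 2W and the lowest at 6W. The level at 6W was 1.88 times lower than at 2W (log2 fold change -0.91, SE 0.103, adjusted p = 0.0231 by edgeR). From 6W to 3M the log2 fold change was 0.19 (95% interval -0.05 to 0.44, adjusted p = 0.434), so that Notch1 was still lower at 3M than at 2W (-0.72, SE 0.103, adjusted p = 0.0118).

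Notch3, which pre-TCR-expressing thymocytes and vascular mural cells are both known to express, stood at 145 and 150 CPM at 2W, 84.9 and 81.3 CPM at 6W, and 81.0 and 109 CPM at 3M. Both 2W libraries lay above the other 4, while 6W and 3M overlapped. The log2 fold change from 2W to 6W was -0.83 (SE 0.156), which missed the adjusted threshold (adjusted p = 0.0593). From 2W to 3M it was -0.63 (SE 0.155, adjusted p = 0.0489), a call close to the threshold. It was kept by DESeq2, without a filter and with a prior count of 2, and lost in 8 other alternatives that drop no library of the 2 ages (adjusted p 0.0058 to 0.13 over the 11), among them both FPKM scales, total counts and the replicate block. That value was -0.41 without replicate 1 of 3M and -0.90 without replicate 2 of 3M. The 2 receptors kept a similar proportion to each other: per length, the FPKM of Notch1 was 4.38 to 5.24 times that of Notch3 in the 6 libraries, with no separation of the ages.

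Among the ligands, Dll4 was lower and the Jagged genes were higher at 3M than at 2W, whereas from 6W to 3M all 3 had a positive value. Dll4 stood at 26.6 and 25.4 CPM at 2W, 9.65 and 11.0 CPM at 6W, and 15.5 and 13.0 CPM at 3M. The ages did not overlap, and 6W was the lowest. Dll4 had the largest fold of the 10 genes from 2W to 6W, 2.52 times lower at 6W (log2 fold change -1.33, SE 0.151, adjusted p = 0.0231). The value from 6W to 3M was 0.46 (SE 0.151, unadjusted p = 0.0197, adjusted p = 0.281), and at 3M Dll4 remained 1.83 times lower than at 2W (-0.87, SE 0.15, adjusted p = 0.0185).

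Jag1, a ligand known from vascular, epithelial and mural cells, stood at 13.9 and 13.8 CPM at 2W, 20.7 and 20.4 CPM at 6W, and 32.8 and 39.5 CPM at 3M. Its ages did not overlap and followed the order of age. Between 2W and 3M it was up-regulated 2.62-fold (log2 fold change 1.39, SE 0.135, adjusted p = 0.0057). This was the only call of the 10 genes in that comparison that was kept whichever single library was left out (adjusted p 0.0059 to 0.044). The 2 steps gave 0.57 (SE 0.135, adjusted p = 0.0966) from 2W to 6W and 0.81 (SE 0.131, adjusted p = 0.188) from 6W to 3M.

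Over all transcripts, Jag2 followed a course like that of Jag1. It stood at 21.3 and 20.4 CPM at 2W, 26.4 and 29.6 CPM at 6W, and 37.1 and 47.9 CPM at 3M, again with no overlap and in the order of age. The rise from 2W to 3M was 2.04-fold (log2 fold change 1.03, SE 0.155, adjusted p = 0.0131). From 2W to 6W the value was 0.43 (adjusted p = 0.221) and from 6W to 3M 0.60 (adjusted p = 0.232). As set out below, nearly all Jag2 counts were assigned to transcripts that the authors assembled, and the call of 3M against 2W was lost with annotated transcripts alone (1.40, adjusted p = 0.23). On those alone the value from 2W to 6W was -0.853, so that the order of age rested on assembled transcripts.

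On the FPKM scale, which divides by length and so allows genes to be compared, Dll4 was the leading ligand at 2W and no longer so at 6W and 3M. Dll1, the other Delta-like ligand tested, was included in this sum. Dll4 made up 42.9% and 44.2% of the summed FPKM of Dll4, Dll1, Jag1 and Jag2 in the 2W libraries, 18.5% and 19.8% at 6W, and 18.1% and 12.5% at 3M. Jag1 was at 0.349 and 0.363 times the FPKM of Dll4 at 2W, 1.43 and 1.24 times at 6W, and 1.41 and 2.04 times at 3M. Leaving out assembled transcripts, which took most of the Jag2 counts, changes this order. On annotated transcripts alone, at 6W Dll4 (2.45 and 2.76 FPKM) overlapped Jag1 (2.54 and 2.53) and lay above Jag2 (0.43 and 0.85). At 3M it (3.81 and 3.16) lay below Jag1 (4.69 and 5.91) and overlapped Jag2 (2.53 and 3.51). The sum of the 4 ligands over all transcripts was 13.2 to 14.7 FPKM in the 4 libraries of 2W and 6W and 21.1 and 26.5 FPKM at 3M.

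**Figure D2:**
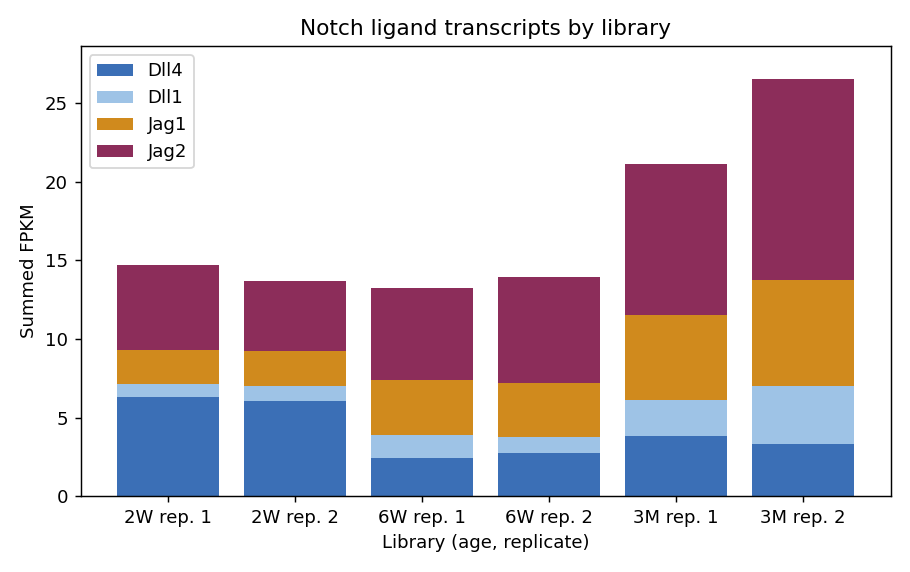
Summed FPKM (y axis, from 0) of the 4 Notch ligands tested, stacked by gene, in each of the 6 libraries (x axis). The Dll4 part is 6.31 and 6.06 FPKM at 2W and 2.45 to 3.81 FPKM in the other 4 libraries, while the Jag1 and Jag2 parts are largest at 3M.

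The target genes did not share one course. Dtx1, a Deltex E3 ligase that is a known Notch1 target in early T cells, stood at 32.9 and 35.6 CPM at 2W, 15.9 and 16.8 CPM at 6W, and 33.8 and 34.0 CPM at 3M. The 6W libraries lay apart, and the 3M libraries fell inside the range of 2W. Dtx1 was down-regulated 2.10-fold from 2W to 6W (log2 fold change -1.07, SE 0.113, adjusted p = 0.0231). From 6W to 3M it was 2.08 times higher (1.05, SE 0.113, unadjusted p = 4.7e-05), which passed the study threshold but not the adjusted one (adjusted p = 0.169). It was the only one of the 10 past the study threshold in that comparison, where 2.11% of all genes were. Between 3M and 2W the difference was -0.01 (95% interval -0.28 to 0.25).

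Hes1 and Heyl, basic helix-loop-helix repressors induced by Notch, shared another course, flat from 2W to 6W. Hes1, the target known from DN thymocytes, stood at 3.54 and 3.13 CPM at 2W, 3.20 and 3.22 CPM at 6W, and 5.17 and 4.44 CPM at 3M. Heyl, which is better known from mural cells of blood vessels, stood at 4.62 and 4.97 CPM at 2W, 4.60 and 5.16 CPM at 6W, and 8.84 and 8.06 CPM at 3M. In both, the 3M libraries lay above the other 4, which overlapped. Heyl was called at 3M against 2W (log2 fold change 0.82, SE 0.193, adjusted p = 0.0439), but not by DESeq2, and the call was kept in 4 of the 11 alternatives that drop no library of the 2 ages (adjusted p 0.031 to 0.58). Hes1 was not called (0.52, SE 0.239, 95% interval -0.05 to 1.10, adjusted p = 0.217). From 6W to 3M the values were 0.79 for Heyl (unadjusted p = 0.0049, adjusted p = 0.23) and 0.58 for Hes1 (unadjusted p = 0.0466, adjusted p = 0.342). These 2 genes rested on 51 to 180 estimated counts a library, and the Heyl call was lost whichever single library of 2W or 3M was left out (adjusted p 0.076 to 0.17).

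Nrarp, an inhibitor that Notch induces against its own signal, stood at 7.08 and 7.17 CPM at 2W, 5.67 and 4.77 CPM at 6W, and 4.87 and 5.73 CPM at 3M. The 2W libraries were above the other 4, but no difference passed a threshold. The log2 fold change was -0.45 (95% interval -0.94 to 0.04, adjusted p = 0.298) from 2W to 6W and -0.42 (95% interval -0.92 to 0.07, adjusted p = 0.243) from 2W to 3M.

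Ptcra carries in its promoter the letters that its known regulators read, and the window from 250 bases before to 50 after its start is printed for that reason. The sequence is from RefSeq (GRCm38.p6, chr17:46763663-46763962, minus strand), 5′ to 3′, and the capitals mark each TGGGAA, the core that RBPJ binds, and each CAGCTG, an E-box that E proteins such as Tcf12 bind.
Ptcra: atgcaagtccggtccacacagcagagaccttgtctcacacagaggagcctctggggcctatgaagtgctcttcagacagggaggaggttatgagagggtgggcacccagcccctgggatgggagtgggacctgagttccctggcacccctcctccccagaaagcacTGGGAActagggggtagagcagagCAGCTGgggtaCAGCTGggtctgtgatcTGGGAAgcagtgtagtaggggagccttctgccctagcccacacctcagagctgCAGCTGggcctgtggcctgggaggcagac
The window held 2 TGGGAA, 84 and 32 bases before the start, and 3 CAGCTG, which begin 60 and 49 bases before it and 21 bases after it. Both strands were searched (TTCCCA is the reverse complement of TGGGAA, and CAGCTG is its own), and no match overlaps another. Of the 32851 promoter windows of this length in the RefSeq table, 25.6% held TGGGAA, 3.79% held 2 or more, 16.3% held CAGCTG, 0.207% held 3 or more and 4.34% held both motifs. Of the 8 genes with a window in the table (all but Hes1 and Heyl), Jag1 and Nrarp held 1 CAGCTG each, and TGGGAA was found in Ptcra alone. Such matches describe the letters of the window, not binding.

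Ptcra stood at 19.2 and 20.1 CPM at 2W, 11.5 and 14.0 CPM at 6W, and 9.68 and 12.1 CPM at 3M. The 2W libraries were above the other 4, and 6W and 3M overlapped. It was down-regulated 1.81-fold at 3M against 2W (log2 fold change -0.85, SE 0.175, adjusted p = 0.029), a call that was kept without replicate 2 of 3M and lost without any other single library (adjusted p 0.031 to 0.13). The value from 2W to 6W was -0.62 (SE 0.173, unadjusted p = 0.0097, adjusted p = 0.138), and from 6W to 3M it was -0.23 (95% interval -0.65 to 0.19).

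**Figure D3:**
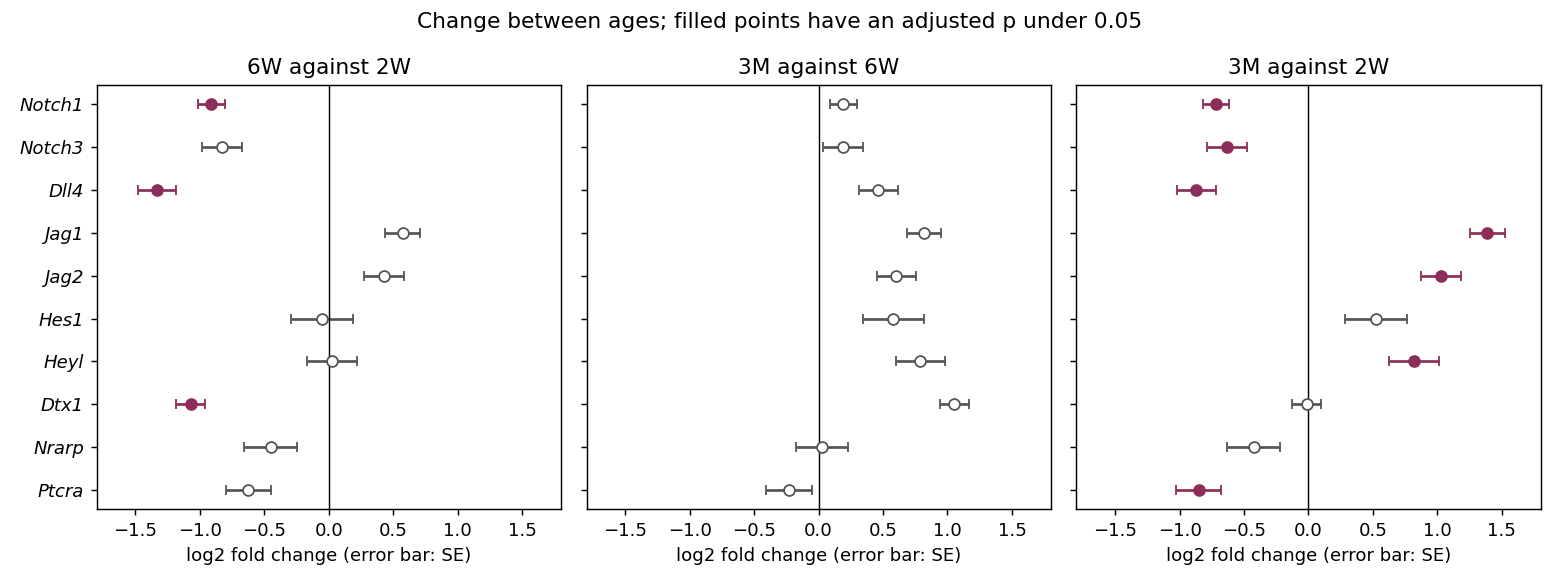
Log2 fold change (x axis, points, with the SE as error bar) of each of the 10 genes (y axis) in 3 comparisons of ages. Filled points have an adjusted p under 0.05, which 3 genes reach at 6W against 2W, none at 3M against 6W and 7 at 3M against 2W.

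A separate contrast set 6W against the mean of 2W and 3M, to describe genes that dip or peak at the age of greatest thymus size. All 10 genes had a negative value, from -1.06 for Dtx1 to -0.09 for Jag2, as did 7397 of the 14805 genes, but none was called at the adjusted threshold, as was none of all tested genes (0.00%). In edgeR's test, 4 of the 10 had an unadjusted p under 0.05, Dtx1 (-1.06, SE 0.101), Dll4 (-0.90, SE 0.135), Notch1 (-0.55, SE 0.091) and Notch3 (-0.51, SE 0.137), against 4.54% of all genes in that direction. By DESeq2, 3 of these were called, Dtx1, Dll4 and Notch1, and 119 of all genes (0.804%). The 3 comparisons and this contrast share libraries, and so are not independent of each other.

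The calls from 2W to 6W rest on all 4 libraries of these ages. Without any one of them, none of the 10 genes was called and 0 to 2 of all genes were, with an adjusted p of 0.12 to 0.25 for Notch1, 0.12 to 0.23 for Dll4 and 0.11 to 0.23 for Dtx1, although the log2 fold changes stayed at -0.95 to -0.87, -1.43 to -1.24 and -1.12 to -0.98. The 3M libraries share in the estimate of the spread. Without replicate 1 of 3M, 5 of the 10 were called at 6W against 2W (Notch1, Notch3, Dll4 and Dtx1 as lower and Jag1 as higher) beside 658 of all genes, and without replicate 2 the first 4 of these beside 615. At 3M against 2W, Jag1 alone was called without replicate 1 or replicate 2 of 2W, beside 239 and 289 of all genes. Without replicate 1 of 3M, 4 of the 10 were called (Notch1, Dll4, Jag1 and Jag2) beside 1741, and without replicate 2 of 3M 6 were (these with Notch3 and Ptcra) beside 1376. Without either library of 6W, 3 were (Notch1, Jag1 and Jag2) beside 567 and 572.

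Per length, Notch1 led at every age with 46.5 to 82.8 FPKM (means of the 2 libraries). At 2W the order below it was Notch3 (16.5 FPKM), Ptcra (13.7), Dtx1 (10.3), Dll4 (6.18), Jag2 (4.95), Nrarp (2.46), Jag1 (2.20), Hes1 (1.99) and Heyl (0.95), and no neighbours overlapped. At 6W Notch3 (9.80) and Ptcra (9.39) overlapped, as did Hes1 (2.04) and Nrarp (1.91). At 3M Jag2 (11.2), Notch3 (11.1) and Dtx1 (10.6) were the next after Notch1 and overlapped one another in that order, ahead of Ptcra (7.96) and Jag1 (6.05). These orders are over all transcripts. On annotated transcripts alone, Jag2 was at 2.53 and 3.51 FPKM, Dtx1 at 4.57 and 4.93 and Jag1 at 4.69 and 5.91 at 3M.

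In the rest of the pathway, the calls were at 3M against 2W. Of 59 further Notch pathway genes on 8 lists (ligands and receptors, ligand endocytosis, cleavage, sugar transfer, the nuclear complex, corepressors, turnover and target genes), 57 were tested, and Dll3 and Hes5 were too low. None was called by edgeR at 6W against 2W or at 3M against 6W. At an unadjusted p under 0.05, 8 were higher and 5 lower at 6W against 2W, beside 11.4% and 7.49% of all genes, and 9 higher and 3 lower at 3M against 6W, beside 7.81% and 6.46%. DESeq2 called 4 in each of these comparisons, beside 6.00% and 2.30% of all genes. At 3M against 2W 9 were higher and 1 lower, 17.5% of the 57 beside the background of 11.0%. Without replicate 1 or replicate 2 of 2W only Tle1 was called, without either library of 6W 5 were (Tle1, Dll1, Dtx4, Il7r and Ccnd3), and without replicate 1 and replicate 2 of 3M 9 and 7 were. Over the 57 genes, the median log2 fold change was -0.001 beside -0.03 over all genes.

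Among ligands and receptors, Dll1 was up-regulated at 3M. It stood at 3.22 and 3.80 CPM at 2W, 5.43 and 3.75 CPM at 6W, and 9.02 and 13.8 CPM at 3M (3M against 2W: log2 fold change 1.70, SE 0.301, adjusted p = 0.0198). It was past the study threshold at 3M against 6W as well (1.32, SE 0.292, adjusted p = 0.214). Notch2 gave 0.33 at 3M against 2W (adjusted p = 0.16).

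In the signal-sending and processing steps, 1 of 10 protease genes and 1 of 5 glycosyltransferases were called, both at 3M against 2W, where 11.0% of all genes were. None of the 6 genes of ligand endocytosis was called by edgeR or DESeq2, with 1 at an unadjusted p under 0.05 in each step (18.9% of all genes from 2W to 6W and 14.3% from 6W to 3M) and 2 at 3M against 2W (27.3%), and Mib2 (0.54, adjusted p = 0.159, at 6W against 2W) and Neurl1b (-0.31, adjusted p = 0.114, at 3M against 2W), both E3 ligases for ligands, had the smallest p-values. Of the 10 protease genes, Aph1c, a γ-secretase subunit, rose (1.41, SE 0.338, adjusted p = 0.0461, at 3M against 2W), and nicastrin, Ncstn, the other named, gave -0.33 at 3M against 6W (adjusted p = 0.336). The Aph1c call rested on 15 to 70.3 estimated counts a library. Of the 5 glycosyltransferases, Poglut1 rose (0.57, SE 0.114, adjusted p = 0.0273), and the Fringe gene Lfng, which modifies Notch, gave 0.65 at 6W against 2W (adjusted p = 0.135).

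None of the 7 genes of the nuclear complex was called in any comparison by edgeR or DESeq2, with 2 at an unadjusted p under 0.05 at 3M against 2W, as 27.3% of all genes were. Rbpj itself gave -0.31 (SE 0.111, adjusted p = 0.131) and the acetyltransferase Kat2a 0.39 (adjusted p = 0.176) at 3M against 2W. Of 8 corepressors, Tle1 (1.39, SE 0.132, adjusted p = 0.0056) and Ctbp2 (0.70, SE 0.159, adjusted p = 0.0384) rose from 2W to 3M. Of 9 genes of turnover and inhibition, the Deltex relatives Dtx3l (0.67, SE 0.11, adjusted p = 0.016) and Dtx4 (0.80, SE 0.132, adjusted p = 0.0165) rose over the same span, whereas Dtx1 was at -0.01.

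Among 9 other target genes tested, Hey1, a repressor related to Heyl, rose from 2W to 3M (0.80, SE 0.157, adjusted p = 0.0254), and its relative Hey2 missed the threshold (1.29, SE 0.324, adjusted p = 0.052). Il7r, the interleukin-7 receptor of DN and mature thymocytes, rose (1.10, SE 0.163, adjusted p = 0.0126), from 34.4 and 38.5 CPM at 2W to 85.3 and 71.4 CPM at 3M. Ccnd3, the D-type cyclin that DN cells use to expand after the pre-TCR signal, fell (-1.06, SE 0.149, adjusted p = 0.0112), from 665 and 631 CPM to 291 and 329 CPM. Il2ra, the CD25 chain that marks DN thymocytes, is named after its values were seen. It stood at 103 and 113 CPM at 2W, 71.7 and 70.3 CPM at 6W, and 113 and 91.2 CPM at 3M, with the 6W libraries below the other 4 as for Dtx1. Its log2 fold changes of -0.61 (adjusted p = 0.0861) and 0.52 (adjusted p = 0.234) in the 2 steps were not called by edgeR, and both were by DESeq2.

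None of the 10 partners of pre-Tα and proximal signalling genes (the CD3 chains, Cd247, Lck, Fyn, Zap70, Syk, Lat and Lcp2) was called by edgeR in any comparison, and DESeq2 called Cd3g as lower at 3M than at both earlier ages. From 6W to 3M all 10 had a negative value, with a median of -0.22, beside 6922 of the 14805 genes and a median of 0.02. Of the 10, 4 had an unadjusted p under 0.05, beside 6.46% of all genes in that direction. Cd3g (-0.75, SE 0.177, adjusted p = 0.228) and Cd247 (-0.43, SE 0.141, adjusted p = 0.278) had the smallest p-values. Of 9 E protein and Ptcra regulators, Tcf12, the E protein HEB (-0.58, SE 0.09, adjusted p = 0.0137), and Bcl11b, a T lineage commitment factor (-0.61, SE 0.092, adjusted p = 0.0131), fell from 2W to 3M. Id2, which binds and blocks E proteins, rose (0.90, SE 0.149, adjusted p = 0.0167). The calls of all 3 were lost whichever library of 2W or 6W was left out, except that of Id2 without replicate 2 of 2W.

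The cell types that could hold these transcripts moved with age as well, and their part in the results was not tested. The sum of the 6 cycling cell markers was 3605 and 3607 CPM at 2W, 2888 and 2935 CPM at 6W, and 2438 and 1926 CPM at 3M. That of the 7 DP thymocyte markers was 14840 and 16530, then 13690 in both libraries, then 11880 and 11810 CPM. Most of it was Rag1, at 9404 and 11180 CPM at 2W, 8340 and 8087 CPM at 6W, and 7715 and 7542 CPM at 3M. From 2W to 6W, 2 of the 7 markers had a positive log2 fold change and 5 a negative one, and from 2W to 3M all 7 had a negative one. The 5 pan-T markers (Cd2, Cd5, Cd6, Thy1 and Cd28) stood at 1938 and 1771 CPM at 2W, 2013 and 2072 CPM at 6W, and 1720 and 1905 CPM at 3M, with 6W above the other ages, which overlapped. The 7 cortical epithelial markers went from 1497 and 1452 CPM at 2W to 1920 and 1909 CPM at 3M, and the 6 medullary markers from 238 and 165 to 345 and 459 CPM. The cortical markers did not move as one. From 2W to 3M Prss16, Ly75 and Enpep rose (0.45, 0.71 and 1.29, adjusted p = 0.0314, 0.0144 and 0.0069), Foxn1, the factor that sets epithelial identity, fell (-0.82, adjusted p = 0.0465, from 28.1 and 21.6 to 14.3 and 13.8 CPM, a call lost with both FPKM scales and whichever single library was left out), and Ccl25 and Psmb11 were at -0.03 and 0.05.

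The vascular lists held members that moved otherwise than their sum. The 8 endothelial markers lay between 218 and 251 CPM, most of it Pecam1 (136 to 180 CPM, -0.34 from 2W to 3M, adjusted p = 0.0906), and the 6 pericyte and smooth muscle markers between 157 and 183 CPM, of which Rgs5 made up 65.0 to 102 CPM (-0.28 from 2W to 3M, adjusted p = 0.375). The endothelial sum was lowest at 3M, and the pericyte sum followed the order of age without overlap. Plvap, a marker of fenestrated endothelium, rose from 7.40 and 5.58 CPM at 2W to 11.97 and 14.51 CPM at 3M (1.03, adjusted p = 0.0301). Acta2, smooth muscle actin, went from 10.8 and 7.91 CPM at 2W to 23.0 and 23.8 CPM at 6W and 19.7 and 22.1 CPM at 3M, higher than at 2W at both ages (1.33, adjusted p = 0.0304, and 1.17, adjusted p = 0.0131). The median log2 fold change from 2W to 3M was 0.17 over the endothelial and 0.74 over the pericyte markers.

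The 6 early DN thymocyte markers (Kit, Flt3, Lyl1, Hhex, Bcl11a and Mef2c) summed to 53.1 and 55.8 CPM at 2W, 69.6 and 63.8 CPM at 6W, and 67.1 and 63.9 CPM at 3M. Their median log2 fold change was 0.60 from 2W to 6W and 0.53 from 2W to 3M, and Flt3, a cytokine receptor of progenitors, rose from 9.04 and 8.22 to 14.6 and 17.2 CPM at 3M (0.88, adjusted p = 0.0209), while Kit was at -0.10. The calls of Flt3 and Plvap at 3M, and that of Acta2 at 6W, were each lost whichever library of 2W or 6W was left out. The 5 mature thymocyte markers summed to 318 to 321 CPM at 2W and 392 to 420 CPM later, the 6 fibroblast markers to 215 to 308 CPM and the 5 B cell markers to 43.2 to 70.3 CPM. The 6 myeloid markers summed to 273 and 241 CPM at 2W and to 537 to 605 CPM at the later ages, and the 5 adipocyte markers to 9.67 and 18.4 CPM at 2W and to 145 and 73.7 CPM at 3M.

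Ratios to the sum of lineage markers in the same library depended in part on the markers. Relative to pan-T markers, Notch1 was 2.07 times lower at 6W than at 2W, Notch3 1.95 times, Dtx1 2.31 times and Ptcra 1.71 times, with no overlap of libraries and with a reference that itself stood highest at 6W. Relative to DP thymocyte markers, a sum that is mostly Rag1, the log2 differences of these 4 were smaller, -0.72, -0.63, -0.87 and -0.44. At 3M against 2W the DP reference gave -0.32 for Notch1 and -0.46 for Ptcra, where the pan-T reference gave -0.69 and -0.83. For Notch3 the DP reference gave -0.25, with overlapping libraries, against -0.62 by pan-T markers, and Dtx1 was at 0.39 without overlap, against 0.02.
Relative to cortical epithelial markers, Dll4 was 2.73 times lower at 6W than at 2W and 2.38 times lower at 3M, a reference whose members went both ways, as given above. Relative to medullary epithelial markers it was 4.90 and 3.67 times lower, with a reference that itself rose from 238 and 165 CPM at 2W to 374 and 396 CPM at 6W. Relative to endothelial markers it was 2.45 and 1.61 times lower. Jag1 was 2.96 times, Jag2 2.30 times and Heyl 2.00 times higher at 3M than at 2W relative to endothelial markers. The endothelial sum is mostly Pecam1, and from 2W to 3M 4 of its 8 members had a positive log2 fold change and 4 a negative one. Each of these ratios of Dll4, Jag1, Jag2 and Heyl separated the libraries of the 2 ages, but 2 against 2 libraries give an exact two-sided permutation p of 0.33 at the lowest.

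The gene sums hide a split between annotated transcripts (ENSMUST) and transcripts assembled by the authors (TCONS). All counts of Notch1, Nrarp and Ptcra were on annotated transcripts, and 95.9% to 99.3% of those of Notch3, Dll4 and Hes1. Assembled transcripts took 20.9% of the counts of Jag1, 37.3% of Heyl, 41.0% of Dtx1 and 95.9% of Jag2, in which 4 assembled transcripts held 21.5% to 28.0% each.

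In Heyl the split differed between libraries, also between replicates of 2W. The annotated transcript ENSMUST00000040821 held 0 and 81.0 estimated counts at 2W, 0 and 26.7 at 6W and 147 and 180 at 3M, while the assembled TCONS_00082236 held 73.0 and 0, 95.0 and 90.3, and 0 and 0. The annotated transcript alone would therefore have set the replicates of 2W far apart, where the gene sums were 73.0 and 81.0. In Jag1, the annotated transcript went from 148 and 132 estimated counts at 2W to 475 and 776 at 3M, and the assembled one was at 70.8 and 93.0 at 2W and 70.2 and 106 at 3M. In Dtx1, the annotated transcript (344 and 294, 201 and 207, 333 and 465) and the assembled one (176 and 286, 126 and 174, 229 and 293) both had their lowest counts at 6W.

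**Figure D4:**
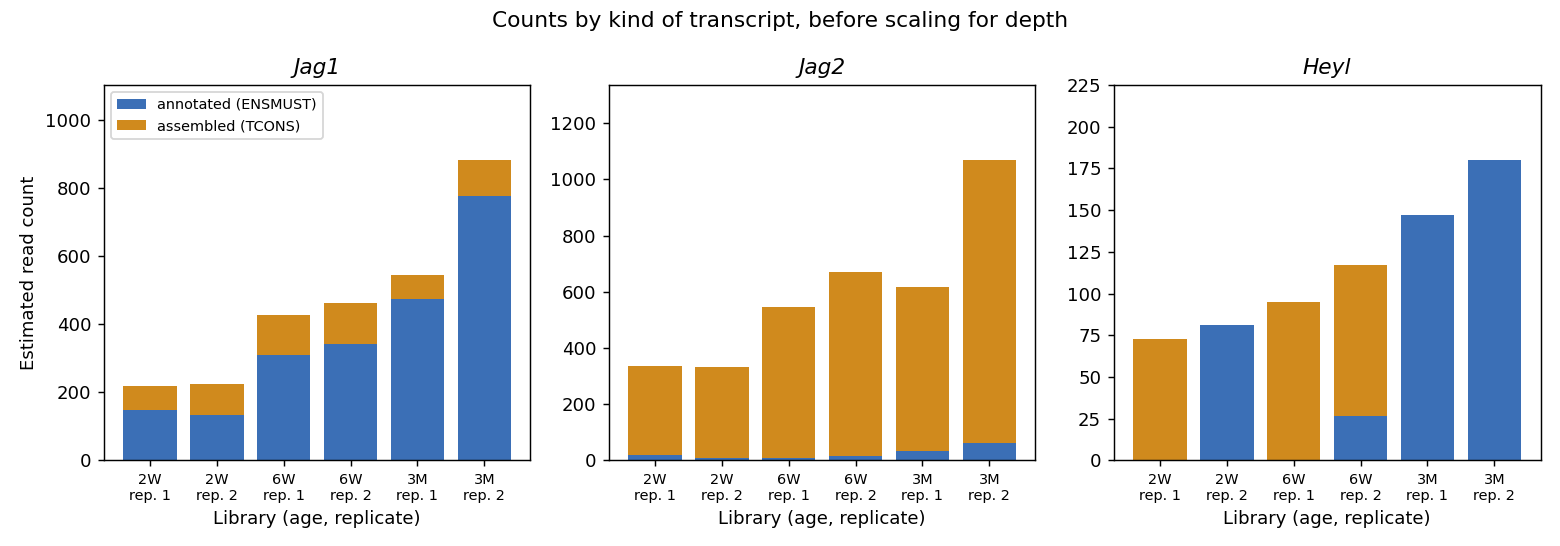
Estimated read counts (y axis, from 0, not scaled for depth) of Jag1, Jag2 and Heyl in each library (x axis), stacked as annotated and assembled transcripts. Jag2 counts are nearly all on assembled transcripts, and those of Heyl switch between kinds from one library to the next while the sum does not.

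Tested one by one, none of the 18 transcripts of the 10 genes that passed the filter was called, and none of the 35277 transcripts was (0.00%). At an unadjusted p under 0.05, 6 of the 18 passed at 6W against 2W, 4 at 3M against 6W and 6 at 3M against 2W, beside 7.71%, 6.91% and 11.0% of all transcripts. DESeq2 called 6, 3 and 5 of the 18, beside 5.03%, 3.93% and 8.77% of all transcripts. The circular RNA table, with 6300 circRNAs, listed 2 that came from any of the 10 genes, both exonic and from Notch1. They lie on the minus strand at chr2:26469961-26471006 and chr2:26484268-26485449 by the file's coordinates, whose build it does not name, and they had 2 and 5 back-splice counts over all libraries, seen at 6W and in replicate 2 of 3M. They are named after their values were seen. A count of 0 allows up to 3 counts, or 137 to 281 per 1000000 junction counts of a library, so that a change with age was not detectable at this depth.

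As a description, the tested genes of at least 10 CPM whose log2 CPM ran most like that of each member over the 6 libraries were found by Pearson's r. They were Atf6 and E2f1 for Notch1, Ddx39 and Ndor1 for Notch3, Fto and Ythdf2 for Dll4, Litaf and Usp54 for Jag1, and Lamb1 and Slc39a1 for Jag2. For the targets and Ptcra they were Hspd1 and Zcchc2 for Hes1, Rsad2 and Slc39a14 for Heyl, Bzw2 and Kiaa1644 for Dtx1, Ints14 and Senp3 for Nrarp, and Ets2 and Aurkb for Ptcra. All of these r were 0.987 to 0.998. They were picked as the highest over 6 libraries of 3 ages, and no p is given. Within the 10 genes, Jag1 and Jag2 (r = 0.986), Notch1 and Notch3 (0.97), Notch1 and Dll4 (0.955), Notch3 and Nrarp (0.953) and Hes1 and Heyl (0.943) ran most alike.

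The small RNA libraries allowed a view of 8 miRNAs known from Notch and pre-TCR signalling. MiR-181a and its relatives tune Notch and TCR signalling in thymocytes, miR-34 is known to target Notch1 and Dll1, and miR-150 targets Notch3 and Myb. Their mature sequences are shown as the deposited table gives them, 5′ to 3′ with T for U, because they fall into 3 groups by seed (bases 2 to 8, in capitals). The 6 that the RefSeq table also holds are identical there.
miR-181a-5p: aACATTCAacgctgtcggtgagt
miR-181b-5p: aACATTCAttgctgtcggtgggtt
miR-181c-5p: aACATTCAacctgtcggtgagt
miR-181d-5p: aACATTCAttgttgtcggtgggt
miR-34a-5p: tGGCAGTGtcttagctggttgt
miR-34b-5p: aGGCAGTGtaattagctgattgt
miR-34c-5p: aGGCAGTGtagttagctgattgc
miR-150-5p: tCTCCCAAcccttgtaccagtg
The 4 miR-181 members share ACATTCA, the 3 miR-34 members GGCAGTG, and miR-150-5p has CTCCCAA.

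MiR-181a-5p was the most abundant of the 8, at 300500 and 327100 CPM at 2W, 317900 and 322100 CPM at 6W, and 254700 and 278800 CPM at 3M, with a log2 fold change of -0.24 from 2W to 3M (SE 0.17, adjusted p = 0.326). MiR-181b-5p stood at 22090 and 25570 CPM at 2W, 16360 and 16730 CPM at 6W, and 13020 and 12610 CPM at 3M. It fell from 2W to 3M by 0.90 on the log2 scale (SE 0.181, adjusted p = 0.006). MiR-181d-5p, which stood at 1652 and 1614, 1190 and 1202, and 885 and 995 CPM, fell by 0.80 (SE 0.189, adjusted p = 0.0112), while miR-181c-5p gave -0.16 (SE 0.245, adjusted p = 0.654). Within the 4 that share a seed, the ages of miR-181b-5p and miR-181d-5p did not overlap and those of miR-181c-5p did. That they differ from miR-181a-5p was not tested.

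MiR-34a-5p rose from 21.8 and 24.8 CPM at 2W to 44.9 and 38.8 CPM at 3M (log2 fold change 0.85, SE 0.22, adjusted p = 0.017). MiR-150-5p rose from 1384 and 1153 to 2702 and 2052 CPM (0.91, SE 0.217, adjusted p = 0.0118). MiR-34c-5p stood at 81.0 to 219 CPM with no call, and miR-34b-5p had 2 to 15 counts a library. All 4 calls were at 3M against 2W, where 29.9% of the 822 tested miRNAs were called. None of the 8 was called at 6W against 2W (8.64% of all miRNAs called), where miR-181b-5p and miR-181d-5p had an unadjusted p under 0.05 as 27.6% of all miRNAs did, or at 3M against 6W (0.852% called), where miR-34a-5p and miR-150-5p did, with 18.0% of all. Of the 8, 2 and 3 were called at 3M against 2W without replicate 1 and replicate 2 of 2W, 4 and 3 without those of 6W, and 1 and 3 without those of 3M. The miRNA and mRNA values stand side by side here, and no relation between them was tested.

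**Figure D5:**
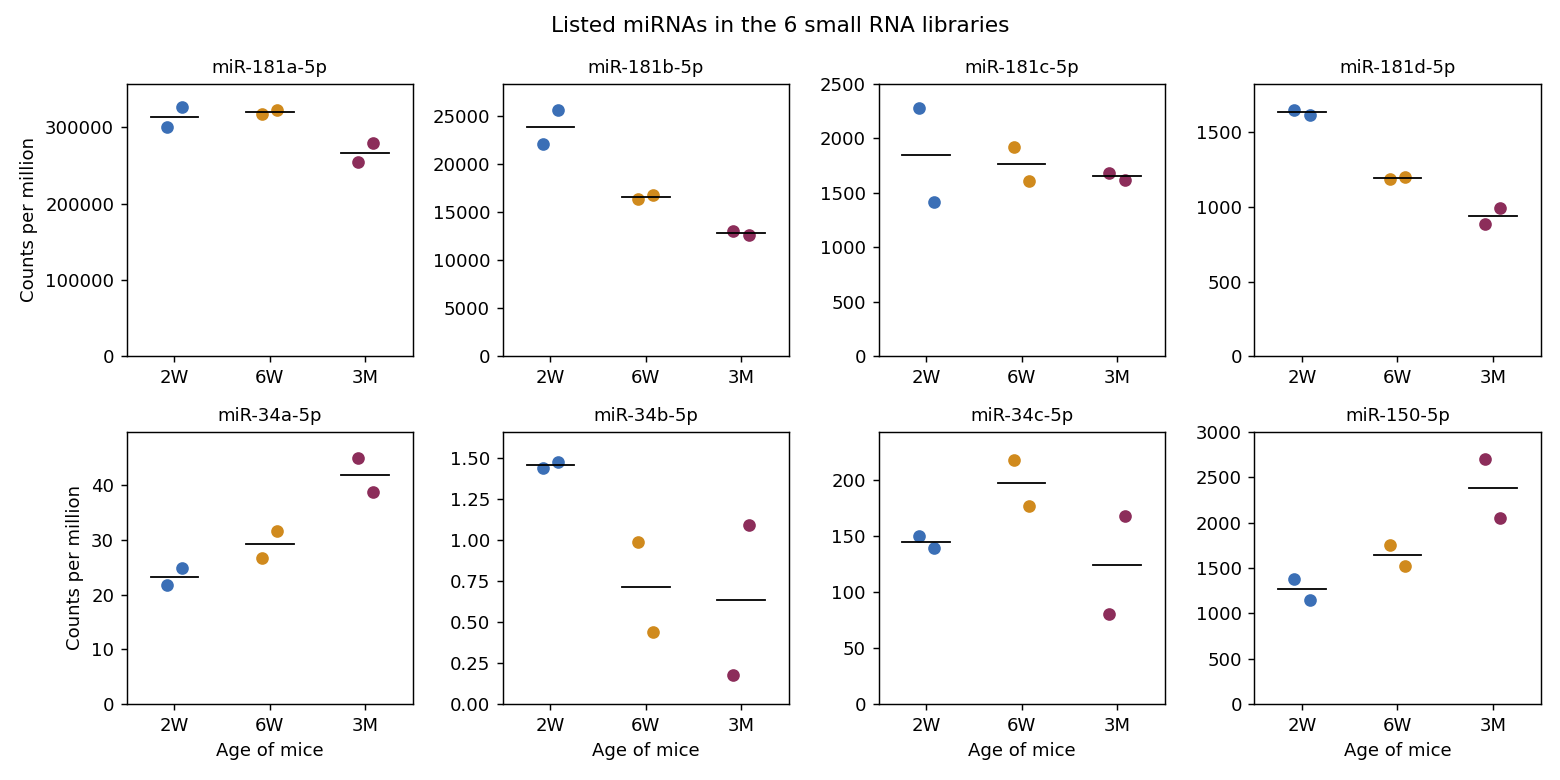
Level of 8 miRNAs (y axis, CPM, from 0) in the 2 small RNA libraries (points) of each age (x axis), with the mean of the age as a line. MiR-181b-5p and miR-181d-5p are lower and miR-34a-5p and miR-150-5p higher at 3M than at 2W.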

How the data were processed

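The authors deposited estimated counts and FPKM per transcript for mRNAs, whole back-splice junction counts for circRNAs and tag counts for miRNAs. Libraries were ribosomal RNA-depleted and strand-specific, or of size-selected small RNA. The submitters' processing notes name Bowtie 0.12.2 and the build mm8 without a role. The counting program is not given in the sources used here. Of the deposited estimated counts, 84.1% were not whole. Counts of the transcripts of a gene were added up, with upper and lower case in the symbol ignored (none of the 10 genes was touched by this), and rounded. Rows without a symbol (0.699% to 1.20% of counts) were left out. The deposited FPKM were summed likewise.

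Genes were filtered with filterByExpr by age and tested in R 4.3.3 with edgeR 4.0.16 (TMM, quasi-likelihood F test, all 6 libraries, age as the only term). SE were computed from the log2 fold change and F. Small RNA libraries held 9181478 to 10994118 counts and circRNA libraries 10663 to 21914. Floors cover counting error only. DESeq2 1.42.0 and limma 3.58.1 on log2(FPKM + 0.1) and log2(FPKM + 1) were among the alternatives. Whether each replicate was 1 animal is not given in the sources used here, and p-values measure the spread between these libraries.

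The 10 genes and all lists were chosen with earlier results of these data known. Named are all 10 genes, genes of the pathway lists that were called or past the study threshold with the 2 of smallest p in each list, the 2 genes most like each member, and transcripts with at least 10% of the counts of a member. CircRNAs were to be named from 6 counts on. Some list members are not reported here, and counts and sums are over the genes kept.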

Additional observations from a re-analysis of the deposited data

How the results depend on the processing

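With 2 libraries an age, the calls hold less well than the directions. At 6W against 2W, the 3 members called became 0 with annotated transcripts alone, 0 with a replicate block, 4 with DESeq2, without a filter and in a fit of the libraries compared, and 0 to 5 without 1 library (0 without any of 2W or 6W, 5 and 4 without replicate 1 and replicate 2 of 3M). At 3M against 2W, the 7 became 3 with annotated transcripts alone, 4 in a fit of the libraries compared, 4 with the replicate block and 1 to 6 without 1 library. At 3M against 6W and in the contrast of 6W with the mean, the count of 0 became 2 and 3 with DESeq2 and 1 and 1 without a filter, and stayed 0 to 0 without 1 library. The cause was not tested, apart from the loss of libraries or transcripts itself. With the replicate block at 3M against 2W, calls were also lost for Aph1c, Poglut1, Ctbp2, Dtx3l and Hey1, 5 of the 10 other pathway genes called, and for Tcf12, Bcl11b, Prss16, Foxn1, Flt3 and Plvap. Whether libraries of the same replicate number belong together was not settled. The difference between replicate 1 and replicate 2, taken gene by gene, had an r of -0.058 between 2W and 6W. It was -0.178 between 2W and 3M and 0.353 between 6W and 3M.

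Members past the study threshold numbered 2 at 6W against 2W (1 and 0 with FPKM and a pseudocount of 0.1 and 1, 1 to 2 without 1 library), 1 at 3M against 6W (3 with annotated transcripts alone, 0 with FPKM + 1, 0 to 1 without 1 library), 2 at 3M against 2W (1 with annotated transcripts alone, 2 to 2 without 1 library, with Ptcra in place of Jag2 without replicate 2 of 3M) and 1 in the contrast with the mean (2 with annotated transcripts alone, 0 with either FPKM scale, 1 to 1 without 1 library). Member transcripts called went from 0 to 6, 3, 5 and 4 with DESeq2 in the 4 comparisons, with 1775, 1386, 3093 and 1015 of all 35277 transcripts, and stayed 0 to 0 without 1 library. Listed miRNAs called without 1 library numbered 0 to 0 at 6W against 2W, 0 to 1 at 3M against 6W, 1 to 4 at 3M against 2W and 0 to 0 in the contrast with the mean.

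Of the fitted member values, signs changed only for those that follow. At 6W against 2W, Jag2 was at -0.853 and Heyl at -2.046 with annotated transcripts alone, and Heyl ranged from -0.056 to 0.11 without 1 library. Hes1 was at 0.012 with total counts and 0.012 with upper-quartile scaling, 0.039 and 0.027 with FPKM at pseudocounts of 0.1 and 1, and -0.115 to 0.038 without 1 library. At 3M against 6W, Notch3 ranged from -0.091 to 0.399 and Nrarp from -0.15 to 0.154 without 1 library. At 3M against 2W, Dtx1 was at 0.056 with total counts, 0.045 with annotated transcripts alone, 0.044 and 0.041 with FPKM, 0.026 with upper-quartile scaling, and -0.071 to 0.049 without 1 library. In the contrast with the mean, Jag2 ranged from -0.172 to 0.046 without 1 library. Relative to DP thymocyte in place of pan-T markers, Hes1 and Heyl went from -0.192 and -0.114 to 0.142 and 0.221 at 6W against 2W. Upper-quartile scaling and a prior count of 2 were chosen after seeing the data, and the latter changed no call. All genes called at 6W against 2W numbered 257, 888 with DESeq2, 662 in the fit of 4 libraries, 467 without a filter, 402 with FPKM + 0.1, 395 with total counts, 124 with exact symbols 5 with the replicate block, 4 with annotated transcripts alone, 0 to 2 without 1 library of 2W or 6W, and 658 and 615 without replicate 1 and replicate 2 of 3M. At 3M against 6W, 1 gene was called, and 341 with DESeq2, 19 without a filter, 6 with FPKM + 1 and 0 to 11 without 1 library. At 3M against 2W, 1630 were called, 922 with annotated transcripts alone, 742 with the replicate block, 663 in the fit of 4 libraries, 239 and 289 without replicate 1 and replicate 2 of 2W, and 567 and 572 without those of 6W.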
